A study of Homo sapiens with 2 samples.

Results

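Zinc finger genes on human chromosome 19 were taken as the protein-coding genes of that chromosome whose symbol begins with ZNF and a digit in GENCODE release 44 lifted to GRCh37. This rule found 249 genes among 1480 protein-coding genes on the chromosome and 20176 in the annotation. The remaining 1231 protein-coding genes of chromosome 19 were used as the comparison, and 266 genes with ZNF symbols on other chromosomes were counted beside them. The label was checked on the annotated coding sequences, in which 247 of the 249 members held at least 1 match to the C2H2 finger pattern and 246 held 3 or more. The 2 members without a match, ZNF625-ZNF20 and ZNF816-ZNF321P, are readthrough genes, and there were 3 such genes in all. In 241 members every finger lay in the exon that holds the stop codon, called the 3' zinc finger exon here.

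The binding data were 2 peak lists of ChIP-exo, in which an exonuclease trims precipitated DNA up to the bound protein. Both libraries came from HEK293T, a human embryonic kidney cell line transduced with a lentivector that carries ZNF676 or ZNF728 with 3 HA tags under a doxycycline-inducible promoter, and the HA tag was precipitated. Cells of both groups had been selected with 1 µg/ml puromycin for 7 days, induced with 1 µg/ml doxycycline and fixed with 1% formaldehyde for 10 min. The bound proteins were thus overexpressed from a transgene, which for ZNF676 was a codon-optimised reconstruction of the full-length protein. There was 1 library per protein, so no difference below has a replicate check, and no test between gene groups was run. Intervals are 95% exact Clopper-Pearson intervals that treat genes as independent, which neighbours sharing a peak are not. The ZNF676 list held 6142 peaks, of which 168 lay on chromosome 19, and the ZNF728 list held 248 peaks, of which 6 lay there. The study's methods state a sequencing depth, but the lists give no reads, so the number behind each peak is unknown. No deposited score was under 80 in either list, and weaker binding would not appear.

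Most zinc finger genes of chromosome 19 encode KRAB zinc finger proteins, in which an array of C2H2 fingers reads DNA and the KRAB domain recruits the corepressor KAP1 (TRIM28). The genes arose by repeated tandem duplication and stand in clusters of related copies. Many of their products bind transposable elements, and the 3' zinc finger exons of the genes themselves are known sites of KAP1 and of H3K9me3 in several cell types. ZNF676 and ZNF728 are members of the family and lie in the same cluster, near the centromere on the short arm.

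4 stretches of ZNF676 peaks are printed, 3 at promoters of members and 1 downstream of a member on repeated sequence. They are given on the plus strand of GRCh37, leave out every annotated exon of protein-coding genes, and run 5′ to 3′. Capitals mark a match on either strand to one of 6 short promoter motifs, described with the promoters.

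ZNF227, promoter, chr19:44716509-44716680: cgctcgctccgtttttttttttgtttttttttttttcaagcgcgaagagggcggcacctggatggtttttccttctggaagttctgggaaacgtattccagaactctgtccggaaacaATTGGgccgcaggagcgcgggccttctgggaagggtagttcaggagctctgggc
ZNF574, promoter, chr19:42580439-42580726: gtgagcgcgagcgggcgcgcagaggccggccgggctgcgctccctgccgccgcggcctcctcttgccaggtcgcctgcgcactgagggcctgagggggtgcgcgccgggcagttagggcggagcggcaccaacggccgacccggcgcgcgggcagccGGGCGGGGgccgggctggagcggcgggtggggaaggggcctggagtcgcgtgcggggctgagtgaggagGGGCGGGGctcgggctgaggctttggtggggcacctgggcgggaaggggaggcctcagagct
ZNF837, promoter, chr19:58892008-58892307: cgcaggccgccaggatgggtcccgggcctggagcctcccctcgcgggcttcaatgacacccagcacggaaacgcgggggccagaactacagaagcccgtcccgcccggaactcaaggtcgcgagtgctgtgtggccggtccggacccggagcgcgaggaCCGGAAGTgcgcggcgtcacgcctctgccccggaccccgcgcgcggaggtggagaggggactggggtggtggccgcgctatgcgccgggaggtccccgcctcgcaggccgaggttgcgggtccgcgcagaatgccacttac
ZNF99, downstream, chr19:22933687-22933832: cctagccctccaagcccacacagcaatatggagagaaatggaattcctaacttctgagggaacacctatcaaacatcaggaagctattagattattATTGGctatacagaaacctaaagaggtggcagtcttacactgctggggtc

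A ZNF676 peak lay in the gene body or within 2000 bp of it in 21 of the 249 members (8.43%, interval 5.30 to 12.6%). Over all protein-coding genes of chromosome 19 the share was 10.5%, and in the 1231 other genes it was 135 genes or 10.97% (9.28 to 12.8%). The share of members was thus near the background, and its interval held the share of the other genes. These shares were not adjusted for gene length, which had a median of 25.9 kb in members and 13.8 kb in the other genes. Counts by length are given further below, and the part of length was not tested. Of the 266 ZNF genes on other chromosomes, 32 held a peak (12.03%, 8.38 to 16.6%). Over the whole annotation the share was 18.1% (17.5 to 18.6%), above the interval of the chromosome 19 members and above that of the other chromosome 19 genes. The 21 members held 22 distinct peaks, since ZNF536 held 2 and no member held 3 or more.

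No member held a ZNF728 peak (0 of 249, 0 to 1.47%), against a background of 0.338% over chromosome 19 and 5 of 1231 other genes (0.406%, 0.132 to 0.945%). At this number of peaks a lower share in members was not detectable. Copies similar to ERV9, the provirus that the paper names as the ZNF728 target, numbered 4 on chromosome 19. All 4 were touched by a ZNF728 peak, and none lay within 50 kb of a member. The part of this in the count of members was not tested. Of the 6 ZNF728 peaks on the chromosome, the closest to a member lay in RAB11B-AS1, 129 kb from ZNF414. The next lay in NUDT19, 312 kb from ZNF507. The plot of shares sets both lists side by side.

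The genes of both bound proteins were themselves without a peak of either list. The start of ZNF676 (chr19:22361891-22398603, minus strand) closest to a ZNF676 peak was 437 kb from its midpoint, and that of ZNF728 (chr19:23157685-23185978, minus strand) was 68.3 kb away. Of the 5 members between them, ZNF729, ZNF98 and ZNF723 held no peak, with nearest ZNF676 midpoints 366, 120 and 81.3 kb from a start. ZNF492 and ZNF99 held 1 ZNF676 peak each, an intronic peak with a score of 90.68 and a downstream peak with a score of 88.86. No ZNF728 peak lay within 4570 kb of a start of any of these 7 genes. Reads from near-identical paralogs can be lost when mapped, and the part of this in the peaks of these genes was not tested. The share of 100-base windows of the 3' zinc finger exon found once in GRCh37 was 58.4% in ZNF98 and 77.1% in ZNF492, which held a peak. It was 93.2% in ZNF676, 98.0% in ZNF99, which held a peak, 99.1% in ZNF729, and 100% in ZNF723 and ZNF728.

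Promoters, taken as the 500 bp on either side of a transcript start, held a ZNF676 peak in 8 members (3.21%, 1.40 to 6.23%). The background over chromosome 19 was 4.46%, and 58 of 1231 other genes held one (4.71%, 3.597 to 6.05%), so the members did not stand apart. The 8 members were ZNF227, ZNF536, ZNF574, ZNF526, ZNF837, ZNF296, ZNF324B and ZNF599. By score they fell into a stronger and a weaker set with ZNF837 between them. ZNF227, a KRAB zinc finger gene of the cluster from ZNF575 to ZNF180, had a score of 218.62, above 92.0% of the list, at chr19:44716509-44716741 with its midpoint 56 bp upstream of a start. ZNF536, which encodes a repressor of neuronal differentiation, had a score of 168.68 at chr19:30718221-30719009, 245 bp upstream of a start. ZNF574 had a score of 163.88 at chr19:42580188-42580726, 139 bp downstream of a start. This midpoint was also 490 bp from the start of a long non-coding RNA.

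ZNF526 had a score of 147.4 at chr19:42724449-42724835, with its midpoint 113 bp downstream of a start and 350 bp from the start of DEDD2, so the peak is shared by both promoters. ZNF837 had a score of 95.29 at chr19:58891987-58892542. The remaining promoter peaks were close to the lowest score of the list, with 82.49 at ZNF296, 80.86 at ZNF324B and 80.83 at ZNF599. They scored above 9.75, 3.42 and 3.32% of the list. In 6 of the 8 promoters the midpoint lay downstream of the nearest start.

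Promoter peaks lay on GC-rich sequence with few or no similar copies. Their GC content ran from 55.8 to 75.3% with a median of 71.7%, and 7 of 8 reached 60%, ZNF227 being the exception. Each had at most 2 sequences in GRCh37 that aligned to 50% or more of it, itself included. The promoters of members were less GC-rich than those of the other genes, with a median of 58.3% (36.3 to 76.8%) against 61.7% (33.1 to 82.5%). Promoter GC was taken within 500 bp of 1 start per gene, that of the transcript with the longest coding sequence. A promoter peak could lie at any start, so the GC of a gene need not be that of the promoter with the peak. At ZNF574 the promoter GC was 58.2% and that of the peak 75.3%. Of the promoters with 70% GC or more, 4 belonged to members, none with a peak, and 151 to other genes, 19 with a peak (12.6%, 7.75 to 18.95%). Between 60 and 70% GC, 4 of 86 members (4.65%, 1.28 to 11.5%) and 31 of 576 other genes (5.38%, 3.69 to 7.55%) held a promoter peak. Between 50 and 60% these numbers were 4 of 131 members (3.05%, 0.838 to 7.63%) and 6 of 413 other genes (1.45%, 0.535 to 3.14%). Within each of these bins the intervals of both groups overlapped. The part of GC content in the promoter counts was not tested.

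For the promoters, 6 motifs of promoter-binding factors were searched on both strands from 250 bp upstream to 50 bp downstream of the start of the transcript with the longest coding sequence. They were CCGGAAGT (ETS), GCATGCGC (NRF1), AAGATGGC (YY1), CCAAT (NF-Y), TGACGTCA (CREB) and GGGCGGGG (SP), none of which contains another. CCGGAAGT occurred in 42 of 249 member promoters (16.9%) and in 65 of 1231 others (5.28%), with 7.23% over all promoters of the chromosome. CCAAT occurred in 51.4% of member promoters, in 36.8% of the others and in 39.3% of all. GGGCGGGG occurred in 30.1%, 34.8% and 34.1% of them. GCATGCGC was found in 3.61% of member promoters and in 4.80% of all, AAGATGGC in 6.43% and 5.54%, and TGACGTCA in 3.61% and 3.38%. Among the 8 members with a promoter peak, 4 windows held CCAAT, 2 held CCGGAAGT and 2 held GGGCGGGG, and none held the other motifs. These windows need not hold the peak, and the matches marked in the printed stretches need not lie in them. In the printed stretches, CCAAT stands on the minus strand at ZNF227 and ZNF99, GGGCGGGG occurs at 2 places at ZNF574, and CCGGAAGT occurs at ZNF837. All of these are matches of letters and not sites shown to be bound.

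The 3' zinc finger exon held a ZNF676 peak in 1 of 249 members (0.402%, 0.0102 to 2.22%). The background for the last coding exon over chromosome 19 was 0.405%, and 5 of 1231 other genes held one (0.406%, 0.132 to 0.945%). The member was ZNF579, with a score of 82.41 at chr19:56090687-56091096, above 9.44% of the list. Members have long last exons, with a median of 3067 bp against 618 bp in the other genes. Per length, the midpoints in last coding exons came to 1.18 per Mb over 0.847 Mb in members and to 4.11 per Mb over 1.22 Mb in other genes, the first from 1 peak and the second from 5. Over all 100-base windows, uniqueness of sequence was similar, as 98.7% in members' last exons and 98.5% in those of other genes were found once in GRCh37. By gene it differed, as every window was found once in 183 of 249 members and in 1068 of 1177 other genes. None of the 249 members had under 50% of such windows, and 25 of the other genes did. The part of uniqueness in the exon counts was not tested.

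Introns held a ZNF676 peak in 9 members (3.61%, 1.67 to 6.75%), against a background of 3.51% and 43 of 1231 other genes (3.49%, 2.54 to 4.68%). In addition, 4 members held a peak in the flanks (1.61%, 0.439 to 4.06%), against a background of 1.96%. No member held one in another exon (0 of 249, 0 to 1.47%). The background there was 0.878%, and 13 of 1231 other genes held one (1.06%, 0.563 to 1.80%), so a lower share in members was not shown. Many of the intronic and flanking peaks lay on repeated sequence. Of the 9 intronic peaks, 5 had more than 2 similar sequences in the genome, as had 3 of the 4 flanking peaks and none of the promoter peaks. The plot of places shows the shares of both gene groups.

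The intronic peak with the highest score was that of ZNF155, with 131.09 and 112554 similar sequences covering 50% or more of it, of which 11022 covered 90%. ZNF790 followed with 126.35 and 848900 similar sequences, of which 630885 covered 90%. The second peak of ZNF536 had a score of 100.29 at chr19:31124838-31125074, 261654 bp downstream of its nearest start, with no similar sequence besides itself. The intronic peaks of ZNF45, ZNF492 and ZNF559-ZNF177 scored 92.55, 90.68 and 88.12, each on sequence with 13960 or more similar copies. That of ZNF304, which encodes a KRAB protein known to recruit KAP1, scored 88.68 and had 2 similar sequences. Of all 22 peaks, 21 consisted wholly of 100-base windows found once in GRCh37, and the peak in ZNF492 had 88.6% of such windows.

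Of the others, 3 peaks that were not at the member's own promoter lay within 500 bp of the start of another gene. The intronic peak of ZNF627, with a score of 83.03, was 162 bp from a start of ACP5, the tartrate-resistant acid phosphatase. The intronic peak of ZNF473, with a score of 84.81, was 144 bp from the start of a long non-coding RNA. ZNF473 itself encodes a protein of histone pre-mRNA processing. The downstream peak of ZNF628, with a score of 87.3, was 169 bp from a start of NAT14. These 3 peaks had no similar sequence besides themselves and GC contents of 66.9, 61.5 and 72.7%, in the range of the promoter peaks.

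The highest score at any member was that of ZNF329, with 298.99, above 94.5% of the list. The midpoint lay 2207 bp upstream of the nearest start, and 79.1% of the peak lay in a copy with the 5′ extension similar to LTR12C, the long terminal repeat studied with these proteins. The peak began 109 bp before the copy and the copy began 2011 bp beyond the gene, so the copy itself was outside the 2000 bp window. It was the only one of the 22 peaks on an LTR12C-like copy, and none lay on an ERV9-like copy. Within 2000 bp of members there were 5 other LTR12C-like copies with the extension, near ZNF559 and ZNF559-ZNF177, ZNF700, ZNF98, ZNF675 and ZNF254. None of these 5 was touched by a ZNF676 peak (0%, 0 to 52.2%), against 381 of 2483 such copies in the genome (15.3%, 13.9 to 16.8%) and 4 of 26 on chromosome 19. The interval of the 5 held the share of the genome, so a lower share near members was not shown. Of the 3 copies without the extension in that window, none was touched.

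Copies with the extension were counted near members and other genes. They lay within 2000 bp of 6 of 249 members (2.41%) and 8 of 1231 other genes (0.650%), and within 50 kb of 16 members (6.43%) and 49 other genes (3.98%). Within 50 kb of members there were 11 copies, of which only that of ZNF329 was touched by a peak.

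The 22 peaks at members had a median score of 90.4, with a range of 80.83 to 298.99. The 114 peaks at other genes of the chromosome had a median of 96.2 and reached 3100. The median of the whole list was 95.1, and 9 of the 22 peaks were at or above it. Peaks at members were narrower than those at other genes of the chromosome, but near the whole list, which had a median width of 344 bp. The median at members was 324 bp, from 122 to 789 bp, against 467.5 bp (106 to 1231 bp) at other genes. Among the 22, the 8 on repeated sequence had a median width of 204.5 bp and a median GC content of 47.9%. The 14 with at most 2 similar sequences had medians of 407.5 bp and 71.0%. Scores overlapped, with 88.12 to 298.99 on repeated sequence and 80.83 to 218.62 on the rest.

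Members were grouped into clusters when at most 250 kb separated neighbours and at least 5 members stood together. This gave 12 clusters of 5 to 43 genes with 233 members in 13.0 Mb and left 16 members outside. Within the cluster spans the ZNF676 list had 28 peaks or 2.15 per Mb, and on the rest of the chromosome 140 peaks or 3.27 per Mb. In clusters, 16 of 233 members held a ZNF676 peak (6.87%, 3.98 to 10.9%). Outside, 5 of 16 did (31.2%, 11.02 to 58.7%), namely ZNF536, ZNF574, ZNF526, ZNF296 and ZNF473, and these intervals did not overlap. All 5 were also without the KRAB motif given with the split by KRAB, and 4 of them held the peak at the promoter. Among members outside clusters without a peak, ZNF358, ZNF414, ZNF507 and ZNF541 lacked this motif too. The intervals in and outside clusters overlapped at both other gaps. At 100 kb the shares were 5.91% (12 of 203, 3.09 to 10.1%) in clusters and 19.6% (9 of 46, 9.36 to 33.9%) outside. At 1000 kb they were 7.14% (17 of 238, 4.22 to 11.2%) and 36.4% (4 of 11, 10.9 to 69.2%). The other protein-coding genes went the same way, with a peak at 6 of 90 inside the cluster spans (6.67%, 2.49 to 13.9%) and at 129 of 1141 outside them (11.3%, 9.53 to 13.3%), with overlapping intervals.

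Promoter peaks followed this split, with 4 of 233 members in clusters (1.72%, 0.470 to 4.34%) and 4 of 16 outside (25%, 7.27 to 52.4%). The background over chromosome 19 was 4.46%. Other genes held a promoter peak at 2 of 90 inside the cluster spans (2.22%, 0.270 to 7.80%) and at 56 of 1141 outside them (4.91%, 3.73 to 6.33%). The promoter split was not recounted at the other gaps. The 4 members in clusters were ZNF227, ZNF599, ZNF837 and ZNF324B. In 3 clusters no member held a peak, namely ZNF554 to ZNF77, ZNF101 to ZNF486 and ZNF787 to ZNF835. The largest, ZNF264 to ZNF446 with 43 members, held 4 with a peak, namely ZNF304, ZNF329, ZNF837 and ZNF324B. The second largest, ZNF175 to ZNF331 with 40 members, held 1, ZNF808, whose product is known to bind MER11 elements. Its peak, with a score of 90.13, lay 695 bp upstream of a start on sequence with 911898 similar copies. The cluster of ZNF676 and ZNF728, ZNF737 to ZNF254, held peaks at 2 of 29 members, none at a promoter, and 9 peaks in its 3.59 Mb. The plot by cluster shows that with these sizes the interval of each cluster overlapped those of the others.

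Members were also split by a motif of the KRAB A box in the translated coding sequence, a choice made after the peaks were seen. Either of 2 patterns was found in 209 members and neither in 40. The patterns miss diverged KRAB domains, so the second group is not a list of genes without KRAB. The background for a ZNF676 peak over chromosome 19 was 10.5%, and for a promoter peak 4.46%. Of the 209 with the motif, 11 held a ZNF676 peak (5.26%, 2.66 to 9.22%), and of the 40 without it 10 did (25%, 12.7 to 41.2%). These intervals did not overlap. When both patterns were required, the shares were 5.99% (10 of 167, 2.91 to 10.7%) with and 13.4% (11 of 82, 6.89 to 22.7%) without, and the intervals overlapped. Promoter peaks were found at 3 of 209 members with the motif, ZNF227, ZNF599 and ZNF324B, and at 5 of 40 without it, ZNF536, ZNF574, ZNF526, ZNF296 and ZNF837. Promoter GC moved with this split, with medians of 57.4% with and 62.5% without the motif. Gene length moved with it too, with medians of 26.8 kb with and 12.2 kb without the motif. The part of GC and of length was not tested. ZNF579, with the peak in its last coding exon, was also among the 40. The number of fingers did not separate members with and without a peak, with medians of 12 (6 to 25) and 12.5 (0 to 39).

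By gene length, members and other genes were counted in the same bins. Of members under 10 kb, 6 of 25 held a ZNF676 peak (24.0%, 9.36 to 45.1%), and of members of 40 kb or more 3 of 53 did (5.66%, 1.18 to 15.7%). Among other genes, 29 of 445 under 10 kb (6.52%, 4.41 to 9.23%) and 40 of 196 of 40 kb or more (20.4%, 14.998 to 26.7%) held one. The intervals of these bins overlapped in members and did not in other genes. Between both groups, the intervals did not overlap under 10 kb, where they ended at 9.23% and began at 9.36%, and overlapped in the other bins. From 10 to 20 kb the counts were 3 of 69 members (4.35%, 0.906 to 12.2%) and 40 of 328 other genes (12.2%, 8.86 to 16.2%). From 20 to 40 kb they were 9 of 102 members (8.82%, 4.11 to 16.1%) and 26 of 262 other genes (9.92%, 6.59 to 14.2%). The distance from a start to the nearest ZNF676 midpoint had a median of 176 kb in members and 89.4 kb in other genes. To the nearest ZNF728 midpoint the medians were 5287 and 3041 kb.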

How the data were processed

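Each protein was measured by ChIP-exo in 1 library. The authors mapped reads to hg19 (GRCh37) with Bowtie2, named in the submitters' processing notes, and, per their methods, removed reads of low mapping quality and reads in blacklisted or high-input regions before they called peaks with MACS on each library. The deposited files give a position and a score per peak. The score was used only to describe and rank peaks within its list, and no read depth can be derived from it.

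Genes and transcript starts came from GENCODE release 44 lifted to GRCh37. A peak counted for a gene when it overlapped the body or 2000 bp around it. Its midpoint set the place, in the order promoter (500 bp), last coding exon, other exon, intron, flank. Every peak left was counted as flank, also where its midpoint lay beyond the 2000 bp. Similar sequences were counted with blastn 2.17.0 (E-value at most 1e-10), without masking. LTR12C-like copies with the extension were those in which 50% or more of the first 600 bp of the amplified LTR12C aligned, with alignments at most 300 bp apart joined. Counting was tested on simulated data. The members, lists, motifs and alternatives were chosen with earlier results of these data known. By rule, the text names ZNF676, ZNF728 and the members between them, any member with a ZNF728 peak (none), members of the 15 highest-scoring ZNF676 peaks, those with a peak in the 3' zinc finger exon or 3 or more peaks, and the 2 strongest promoter peaks per cluster. The remaining members with a peak were named after their values were seen. The sequencing instrument in the labels is not the one in the paper's methods. Further peak sequences are not reported here.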

Additional observations from a re-analysis of the deposited data

How the results depend on the processing

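No paired analysis was possible because there was 1 library per protein. Of 44 alternative values of 13 shares, 36 stayed within the 95% interval of the share as reported. With peaks at or above the median score only, the share of members with a ZNF676 peak was 3.21%, that of other genes 6.09%, that of members with an intronic peak 1.20%, that of members with a peak in the 3' zinc finger exon 0%, and that of other genes with a promoter peak 2.92%, since this filter removes peaks. Other genes with a ZNF676 peak came to 9.10% without a flank and to 12.9% with a flank of 5000 bp, and other genes with a promoter peak came to 3.25% with the outermost start only. The count of 0 members with a ZNF728 peak held under each of its 5 alternatives. The split by KRAB motif, the share outside clusters and their alternatives were added after the data were seen. With 1 library and no reads, weak peaks could not be separated from background.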

Other observations

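Chromosome 19 also holds 19 protein-coding genes with other zinc finger symbols (ZFP, ZSCAN, ZIM, ZIK, ZKSCAN, ZBTB and PEG3). A ZNF676 peak lay at 2 of them (10.5%, 1.30 to 33.1%, exact interval), and a ZNF728 peak at none. ZBTB7A, which encodes a BTB zinc finger repressor also called LRF, had a peak with a score of 94.31 in its last coding exon at chr19:4044917-4045308. ZBTB32 had a peak with a score of 93.17 in its flank at chr19:36208849-36209229. Neither gene belongs to the KRAB zinc finger family.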
